A study of Mus musculus with 2 samples.

Results

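Faint barcodes are droplets that carried more RNA than a droplet without a cell but less than is usually asked of a cell. They were chosen by a measured value, the total count of unique molecular identifiers (UMIs) of a barcode, where a UMI stands for an RNA molecule that was caught, and hold at least 500 and under 2000 UMIs. The control library had 191 of them and the knockout library 51, so there were 242 among 707712 barcodes with at least 1 UMI. They were compared with the 1011 control and 406 knockout barcodes of 2000 or more UMIs, called bright here, and with droplets of 20 to 100 UMIs, used here as a measure of free RNA in the suspension.

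The cells were tdTomato-expressing (tdT) Cajal-Retzius (CR) cells of the mouse hippocampus at postnatal day 14. The control library pooled 4 conditional heterozygous mice (*ΔNp73-Cre; Cic flox/+; tdT*, 3 males and 1 female), and the knockout library 4 conditional knockout littermates (*ΔNp73-Cre; Cic flox/flox; tdT*, 2 males and 2 females). All mice therefore carried the Cre, at least 1 floxed *Cic* allele and the tdT reporter, and *ΔNp73-Cre* drives recombination in CR cells and their progenitors. Hippocampi were dissociated with papain, cells that excluded DAPI and carried tdT were sorted, and 10x Genomics 3′ libraries were made, 1 per genotype.

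CR cells are early-born neurons that secrete reelin, the product of *Reln*, and most of them die after birth. In droplet sequencing, the RNA of a barcode can come from several compartments of a cell: *Malat1*, *Meg3* and *Miat* are long noncoding RNAs that stay in the nucleus, unspliced RNA of long genes is nuclear as well, and the 13 mRNAs of the mitochondrial genome stay inside mitochondria. The shares of these kinds of RNA are widely used in quality control of barcodes.

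The control library held 16336796 UMIs in all and the knockout library 6777071, of which faint barcodes held 1.08% and 0.733% and bright barcodes 43.0% and 44.1%. The median faint barcode had 811 UMIs in the control and 825 in the knockout, against 6222 and 6440.5 in bright barcodes. Droplets of 20 to 100 UMIs had a median of 89 and 44 UMIs, equal to 11.0% and 5.33% of the median faint barcode. The limit of 100 lowers the control value: at 20 to under 200 UMIs there were 77350 and 76280 droplets, with medians of 107 and 44. Of the barcodes of 500 UMIs or more, faint ones made up 15.9% in the control (95% exact interval 13.9 to 18.1) and 11.2% in the knockout (8.42 to 14.4). These intervals and those below cover counting error only, UMIs of a barcode are not independent of each other, and with 1 library per genotype no difference was tested across samples. Of faint barcodes, 9 control and 6 knockout ones had the same barcode sequence as any barcode with a UMI in the other library, and none had one with 500 UMIs there. None was within 1 base of a bright barcode of its own library, against 1.39% and 0.356% of the droplets.

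The targeted gene *Cic* (chromosome 7, GRCm38, 25267704 to 25294159, plus strand), a transcriptional repressor, had 16 UMIs in 14 of 191 control faint barcodes and 0 in the 51 knockout ones, where the control level would give 4.35 UMIs. A count of 0 there allows up to 74.6 CPM, against 108 in the control (CPM is counts per 1000000 UMIs, here outside the genes whose names start with mt-, Rpl, Rps or Mrp). In thinned bright barcodes it stood at 51.1 and 49.7 CPM. Since 3′ reads need not cover the deleted part of *Cic*, these values do not check the deletion.

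Most faint barcodes were rich in mitochondrial mRNA. The mitochondrial share of all UMIs ran from 0 to 41.0% over the 191 control faint barcodes, with a median of 12.1%, and from 0 to 58.4% over the 51 knockout ones, with a median of 11.5%. Bright barcodes thinned to 1000 UMIs had medians of 3.10% and 3.80%, and their highest values were 11.4% and 12.2%. Hence 157 of 191 and 37 of 51 faint barcodes lay above the bright median, and 100 and 25 of them lay above every thinned bright barcode of their library, while the rest overlapped with it.

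Summed over barcodes, the mitochondrial share was 11.0% in faint and 3.16% in bright barcodes of the control, a ratio of 3.48 (95% interval 3.42 to 3.54). In the knockout it was 14.2% against 3.91%, a ratio of 3.64 (3.54 to 3.75), and a few faint barcodes with over 30% raise that sum. Droplets held 0.501% and 0.644%, so that the mitochondrial share of faint barcodes was 21.9 and 22.1 times that of the free RNA. All 13 mitochondrial mRNAs were at least 2-fold higher in the control, and so were the 12 with 50 UMIs or more (faint and thinned bright together) in the knockout. Of all genes with that many UMIs, taken over all UMIs as here, 12.7% in the control and 10.9% in the knockout were at least 2-fold higher. With the genes that start with mt-, Rpl, Rps or Mrp left out, it was 15.4% and 11.1%. The lowest control ratio was 3.05 (*mt-Nd6*) and the highest 4.04 (*mt-Nd5*, a subunit of complex I). *mt-Atp6*, a subunit of ATP synthase and the most abundant of them, had 24639 CPM (for mitochondrial genes taken over all UMIs) in faint against 7192 in bright control barcodes, and 31849.6 against 9525 in the knockout.

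Nuclear-retained RNA went the other way. The share of *Malat1*, *Meg3* and *Miat* is given here among UMIs outside the genes that start with mt-, Rpl, Rps or Mrp. Its median was 0.177% over control faint barcodes (lowest 0, highest 19.3%) and 0% over knockout ones (highest 6.37%), against 7.18% and 6.88% in thinned bright barcodes. Only 18 control and 0 knockout faint barcodes lay above the bright median. No UMI of *Malat1* was found in 79 of 191 and 27 of 51 faint barcodes. At an equal depth of 500 UMIs, *Malat1* was detected in 49.7% (42.4 to 57.0) of control faint and 98.4% (97.4 to 99.1) of control bright barcodes. The knockout values were 41.2% (27.6 to 55.8) and 96.8% (94.6 to 98.3). Droplets, at their much lower depth, had a *Malat1* UMI in 38.2% and 20.7% of cases.

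Summed over barcodes, the 3 RNAs made up 2.18% in faint and 7.09% in bright barcodes of the control, a ratio of 0.308 (0.297 to 0.319). In the knockout they made up 1.31% and 6.92%, a ratio of 0.189 (0.173 to 0.206). The ratios moved with depth, to 0.151 and 0.109 for faint barcodes of 500 to under 1000 UMIs and 0.463 and 0.260 for the deeper ones. The nuclear-retained share of the droplets was 0.820% and 0.781%. *Malat1* itself (chromosome 19, GRCm38, 5795690 to 5802672, minus strand) had 20512 CPM in faint and 66693 in bright control barcodes, and 12080.2 and 64493 in the knockout. *Meg3*, an imprinted noncoding RNA, stood at 1292 against 4157 CPM in the control and 1019 against 4643 in the knockout. *Miat* was sparse, with 6 UMIs in control faint barcodes. Of 7 further nuclear RNAs, 6 of 6 with enough UMIs in the control and 5 of 5 in the knockout were at least 2-fold lower, among them *Snhg11* (ratios 0.304 and 0.253) and *Rian* (0.449 and 0.205). Of all genes with enough UMIs, 30.2% and 39.4% were at least 2-fold lower.

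**Figure D1:**
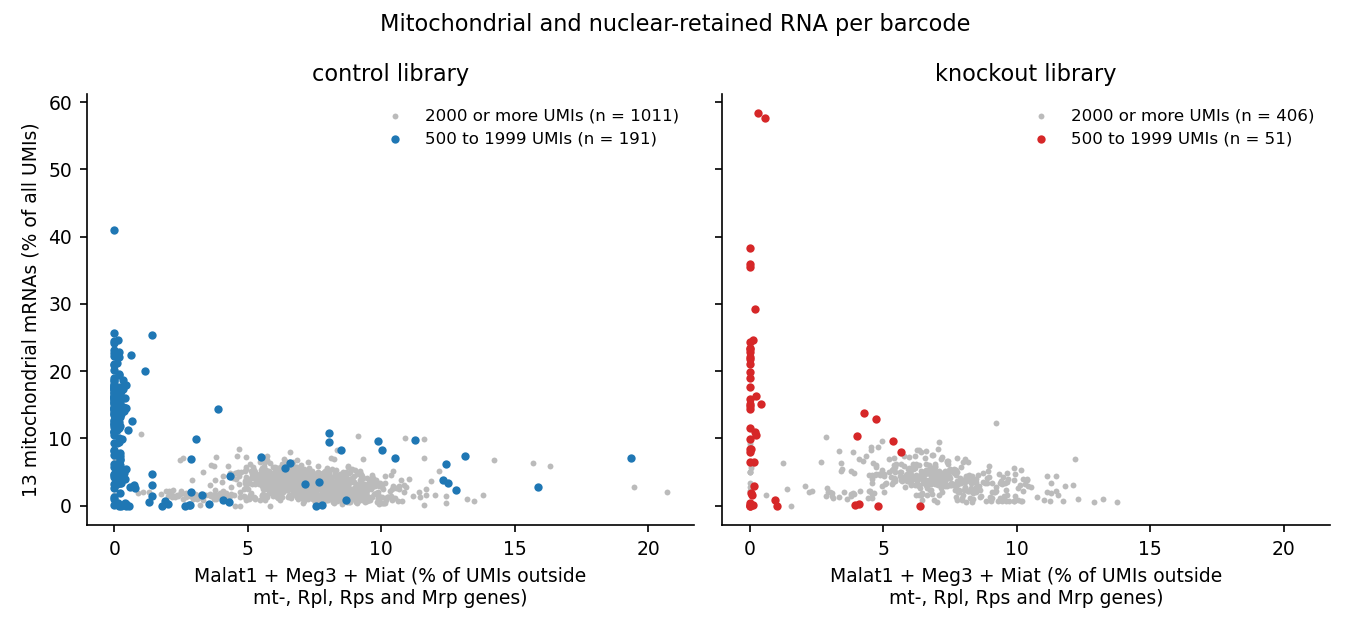
Each point is 1 barcode, with the share of *Malat1*, *Meg3* and *Miat* on the horizontal axis (% of UMIs outside the left-out genes) and the mitochondrial share on the vertical axis (% of all UMIs), both unthinned, for the control (left) and knockout (right) library. Faint barcodes (blue or red) form a column near 0 on the horizontal axis that reaches 41.0% and 58.4% mitochondrial share, with a smaller number among the bright barcodes (grey).

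The nuclear-retained share split the faint barcodes into unequal groups. The limits of 1% and 2% were chosen after the values were seen, so the groups are ranges and not types. Under 1% lay 148 of 191 control barcodes (77.5%, 70.9 to 83.2) and 41 of 51 knockout ones (80.4%, 66.9 to 90.2). Between the limits lay 8 and 1, and 35 and 9 had 2% or more. Few lay just under the lower limit, since 6 and 2 were between 0.5% and 1%. Among bright barcodes, 18 of 1011 (1.78%) and 14 of 406 (3.45%) were under 1%.

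The groups differed in mitochondrial share, which did not define them. Its median was 14.2% in control and 15.1% in knockout barcodes under 1%, and 3.76% and 7.98% in those with 2% or more. The last group was also the deepest, with medians of 1309 and 1078 UMIs. Of barcodes with 2% or more, 11 control and 4 knockout ones had under 2% mitochondrial UMIs, and their summed mitochondrial share was 0.429% and 0.0637%. A further 11 and 8 barcodes were low in both, and their ribosomal protein mRNAs made up 10.6% and 7.39% of UMIs.

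The composition changed with depth. The share of barcodes under 1% was 84.1% and 84.2% at 500 to under 750 UMIs in the control and knockout, 84.4% and 86.7% at 750 to under 1000, 75.0% and 85.7% at 1000 to under 1500, and 40% and 60% at 1500 to under 2000. Above the upper limit of the range it was 21.7% and 63.6% at 2000 to under 3000 UMIs, 5.88% and 10.7% at 3000 to under 4000, and 1.12% and 3.28% at 4000 to under 6000. Intervals are wide for the knockout, where 10 barcodes held 1500 to under 2000 and 11 held 2000 to under 3000 UMIs. The median mitochondrial share was highest at 750 to under 1000 UMIs, with 14.6% and 19.9%. Just inside the lower limit, at 500 to under 600 UMIs, the 38 control barcodes had a median mitochondrial share of 7.55% and 65.8% had 3 CR markers. Just outside it, at 400 to under 500 UMIs, the values were 5.35% and 54.9% of 51 barcodes. In the knockout they were 8.38% and 30.8% of 13 barcodes inside the limit and 1.47% and 20% of 10 outside it. Further out, at 300 to under 400 UMIs, the median mitochondrial share was 1.78% in 115 control and 13.2% in 28 knockout barcodes. At the upper limit, the 3 control barcodes of 1800 to under 2000 UMIs had a median nuclear-retained share of 7.67% and the 5 of 2000 to under 2200 had 5.83%. The 3 knockout barcodes inside had 4.27% and the 3 outside 0.0556%.

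**Figure D2:**
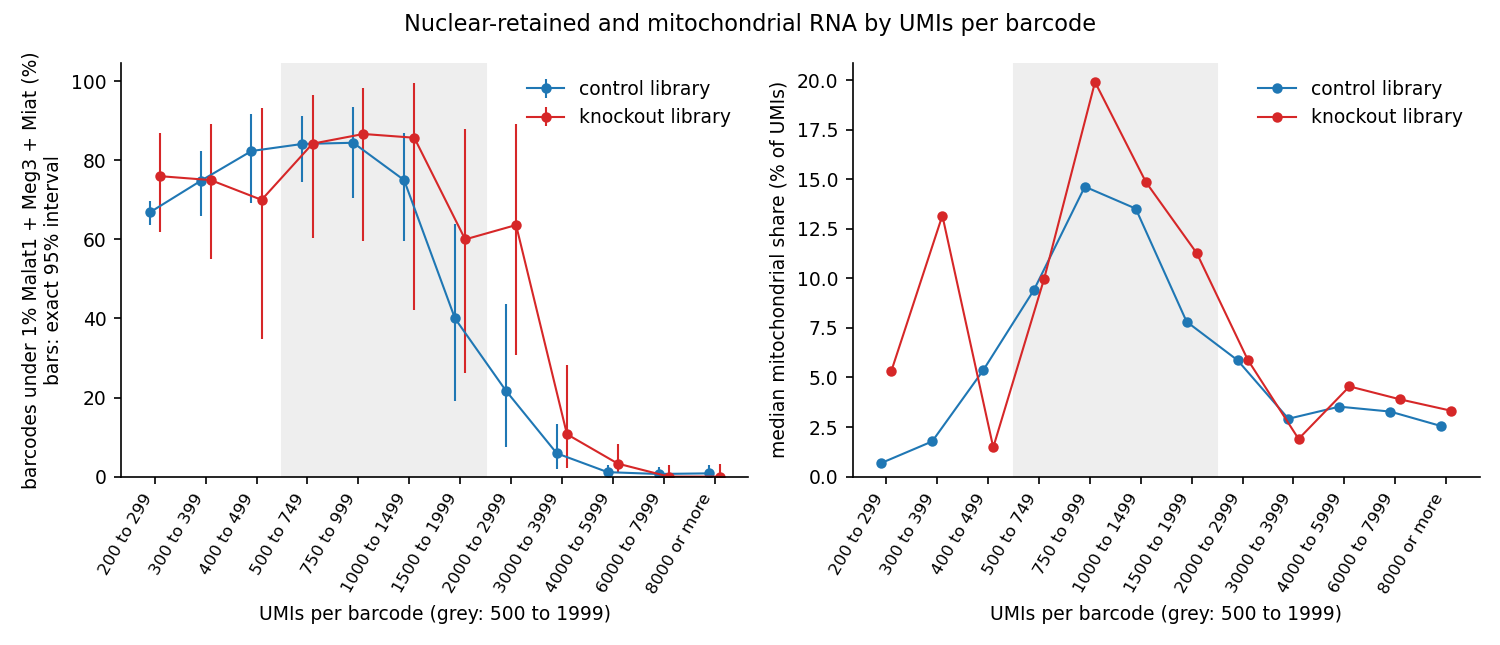
Left, the share of barcodes with under 1% nuclear-retained RNA (%, exact 95% interval) and right, the median mitochondrial share (% of UMIs), both by UMIs per barcode, for the control (blue) and knockout (red) library with the faint range in grey. The left share is 84.1% to 86.7% at 500 to under 1000 UMIs and at most 3.28% from 4000 UMIs, and the right median has its highest values, 14.6% and 19.9%, at 750 to under 1000 UMIs.

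Faint barcodes carried CR cell RNA. *Reln* (chromosome 5, GRCm38, 21884454 to 22344702, minus strand) had a UMI in 147 of 191 control and 27 of 51 knockout faint barcodes. At 500 UMIs per barcode it was detected in 71.7% (64.8 to 78.0) of control faint and 95.3% (93.8 to 96.5) of control bright barcodes, and in 47.1% (32.9 to 61.5) and 91.4% (88.2 to 93.9) in the knockout. Droplets, at their much lower depth, had a *Reln* UMI in 6.65% and 3.19% of cases, so these shares cannot be set against those at 500 UMIs. *Reln* stood at 6210.3 CPM in faint and 8233 in bright control barcodes, a ratio of 0.754 (0.704 to 0.808), and at 957 in droplets. In the knockout it stood at 4971 and 7727 CPM, a ratio of 0.643 (0.555 to 0.743), and at 880.3 in droplets. A single knockout barcode held 63 of the 200 *Reln* UMIs, and without it the knockout ratio was 0.453. That barcode had 1078 UMIs, no mitochondrial UMI and a nuclear-retained share of 6.37%.

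The 10 CR markers together made up 1.68% of UMIs in control faint barcodes, 1.52% in bright ones and 0.592% in droplets. In the knockout they made up 1.23%, 1.43% and 0.641%. The faint over bright ratios were 1.11 (1.06 to 1.16) and 0.856 (0.780 to 0.939). The control ratio depends on leaving out the mt-, Rpl, Rps and Mrp genes, and over all UMIs it was just under 1. Both list ratios were also raised by the abundant marker *Ndnf*, given below, and were not taken without it. Taken singly, 6 markers were higher and 4 lower in the control. Of those with enough UMIs in the knockout, 3 were higher and 5 lower. Of the 10 markers 1 was at least 2-fold higher in the control and 0 lower, and of the 8 with enough UMIs in the knockout none passed 2-fold, beside 15.4% of all genes higher and 30.2% lower in the control and 11.1% and 39.4% in the knockout. *Ndnf*, which codes for a secreted neurotrophic factor, stood at 7584 against 3887 CPM in the control (ratio 1.95) and 4648 against 3460.4 in the knockout (1.34). *Trp73*, the gene whose promoter drives the Cre, had ratios of 1.04 and 0.522 on 70 and 11 faint UMIs, and *Cacna2d2*, a calcium channel subunit, 0.987 and 0.870. *Ebf3*, a transcription factor, was at 0.628 and 0.789. *Trp73* and the transcription factors *Lhx1*, *Nhlh2* and *Tbr1* had a higher CPM in droplets than in faint or bright barcodes of either library.

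With both classes thinned to 1000 UMIs, at least 3 of the 10 CR markers were detected in 49 of 64 control faint barcodes of 1000 to under 2000 UMIs (76.6%, 64.3 to 86.2) and in 921 of 1011 bright ones (91.1%, 89.2 to 92.8). In the knockout the values were 9 of 17 (52.9%, 27.8 to 77.02) and 366 of 406 (90.1%, 86.8 to 92.9). With all faint barcodes thinned to 500 UMIs, they were 53.9% and 65.9% in the control and 31.4% and 65.5% in the knockout. Unthinned, 134 of 191 control and 22 of 51 knockout faint barcodes had 3 or more.

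Many barcodes with CR markers were low in nuclear-retained RNA. Of the 148 control barcodes under 1% nuclear-retained RNA, 98 had 3 or more CR markers and no other list of cell type markers at 3, and of the 41 knockout ones 15 did. Their summed mitochondrial share was 14.8% and 22.8%. Their *Reln* level was 8720.3 and 7551 CPM, beside 8233 and 7727 in thinned bright barcodes, although *Reln* is itself 1 of the markers that picked them. Their nuclear-retained share was 0.133% and 0.0484%, below the 0.820% and 0.781% of the droplets, but here the rule of under 1% sets the upper end. The 35 control and 9 knockout barcodes with 2% or more had *Reln* at 5693 and 10274 CPM, the latter with the single barcode named above.

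Some faint barcodes carried astrocyte RNA. Of 12 lists for cell types other than CR cells, astrocyte markers reached 3 or more in 18 of 191 control faint barcodes (9.42%, 5.68 to 14.5) and 7 of 51 knockout ones (13.7%, 5.70 to 26.3). Oligodendrocyte markers did so in 3 and 0 barcodes and microglia markers in 1 and 1. The 9 remaining lists (3 of other neurons, and those of oligodendrocyte precursors, vessel wall, ventricle lining and choroid plexus, connective tissue and red blood cells) reached 3 markers in none of the 191 and 51. A count of 0 allows up to 1.57% and 5.88% of barcodes to reach 3 markers, and does not bound the share of these cell types. The barcodes rich in *Ttr* or in smooth muscle genes, described below, did not reach 3 on these lists. At 500 UMIs per barcode the astrocyte list reached 3 markers in 14 control faint and 2 of 1011 bright barcodes, and in 5 knockout faint and 0 of 406 bright ones. In 1 control barcode and 0 knockout ones, 3 CR markers met 3 markers of another list. The sort was for tdT, which tdT-negative cells should not pass.

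The astrocyte list held 0.156% of faint and 0.00313% of bright UMIs in the control, a ratio of 49.9 (34.0 to 75.7), and 0.306% against 0.00811% in the knockout, a ratio of 37.7 (25.2 to 57.8). Droplets held 0.00312% and 0.00635%. *Aldoc*, a glycolytic enzyme of astrocytes, was found in 25 control and 9 knockout faint barcodes, and *Slc1a3*, a glutamate transporter, in 21 and 8. The barcodes of the astrocyte list had *Reln* at 162 CPM in the control, on 2 UMIs, and at 0 in the knockout. Their mitochondrial share was 10.8% and 7.42% and their nuclear-retained share 0.154% and 0.0763%. Thinned to 1000 UMIs, only 2 of 1011 control and 2 of 406 knockout bright barcodes had 3 astrocyte markers. Bright barcodes are therefore no reference for these shares in astrocytes. Oligodendrocyte markers made up 0.118% of control faint UMIs against 0.00198% in bright barcodes, and 0 UMIs in the knockout, and most of the control UMIs of this list came from 1 barcode.

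Barcodes under 1% nuclear-retained RNA with no list at 3 numbered 29 in the control and 18 in the knockout. They had *Reln* at 2699 and 1647 CPM. In the control, *Apoe* was found in 10 of the 29. In the knockout, *Crip1*, *Tagln*, *Tpm2*, *Myl9* and *Acta2*, genes of contractile smooth muscle, came from 1 barcode of 1664 UMIs. *Ttr*, a transport protein made by the choroid plexus, had 144 of its 146 control UMIs in 1 barcode as well.

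Counted over all genes with 50 or more UMIs in faint and thinned bright barcodes together, 670 of 4343 (15.4%) were at least 2-fold higher and 1313 (30.2%) at least 2-fold lower in faint control barcodes. In the knockout 179 of 1618 (11.1%) were higher and 638 (39.4%) lower. The median log2 ratio, taken only over genes with a UMI in faint barcodes, was -0.22 and -0.45. These counts are a description of the summed UMIs, not a test, and genes with few UMIs can pass 2-fold by counting error.

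Of the 10 genes ranked highest in both libraries, most are known to be strongly expressed by astrocytes. The control ratio of *Aldoc* was 115 (43.0 to 434) and its knockout ratio 50.6 (24.6 to 117). *Apoe*, the lipid carrier of glia, stood at 5290.3 against 109 CPM in the control and 7532 against 272 in the knockout. *Sparcl1* had ratios of 35.0 and 62.4, *Slc1a2*, the main glutamate transporter of astrocytes, 14.6 and 13.9, and *Glul*, glutamine synthetase, 12.5 and 30.3. The metallothioneins *Mt1* and *Mt3* had 23.2 and 10.0 in the control and 29.3 and 14.1 in the knockout, and *Dbi* had 11.6 and 14.2. *Cst3*, a secreted protease inhibitor, had 6.37 and 6.97. For these 9 genes, 50.8% to 97.8% of the faint UMIs lay in the 22 control and 8 knockout barcodes with 3 markers of another cell type. *Aldoc* is itself on the astrocyte list that helped to pick those barcodes, so its share there follows in part from that choice. Without those barcodes the ratios of *Apoe* were 13.5 and 3.87, those of *Slc1a2* 2.83 and 3.43 and those of *Cst3* 3.49 and 1.76. *Camk1d*, a kinase gene, was the exception: 8.32% and 7.55% of its UMIs lay in those barcodes, and its ratios of 4.96 and 5.99 (5.19 to 6.91 in the latter) were 5.06 and 6.71 without them. Its droplet level was also high, with 2379 and 4512 CPM, beside 3254 and 7904 in faint and 655 and 1319 in bright barcodes. In a control faint barcode of 891 UMIs and 146 genes it made up 9.99% of UMIs. Bright UMIs were few for some of the highest genes. In the control, thinned bright barcodes held 4 UMIs of *Aldoc*, 20 of *Sparcl1*, 29 of *Mt1* and 42 of *Glul*. In the knockout they held 9, 7, 34 and 16. These genes passed the limit on UMIs per gene only with their faint UMIs added. *Apoe*, *Dbi*, *Mt3*, *Cst3* and *Camk1d* passed it on bright UMIs alone in both libraries, and *Slc1a2* in the control only.

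The 10 genes ranked lowest in both libraries were all long genes, several of them known for roles at neuronal membranes. Their spans ran from 419 to 2245 kb, with a median of 633 kb. Those of the 10 highest ran from 1.25 to 421 kb, with a median of 6.31 kb, and *Camk1d* was the longest of them. *Kcnq5*, a potassium channel, had ratios of 0.0871 (0.0551 to 0.131) and 0.0401 (0.00824 to 0.118), and *Kcnh7*, another, 0.175 and 0.133. *Cntnap2*, a cell adhesion gene and the longest, stood at 2354 against 10869 CPM in the control and 1789.7 against 9936 in the knockout. *Fam155a* had ratios of 0.125 and 0.0770, *Nav2* 0.168 and 0.105, *Mdga2* 0.0747 and 0.132, and *Thsd7b* 0.194 and 0.169. *Cep112*, *Hs6st3* and *Maml3* had 2 to 37 faint UMIs and ratios of 0.0356 to 0.172.

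**Figure D3:**
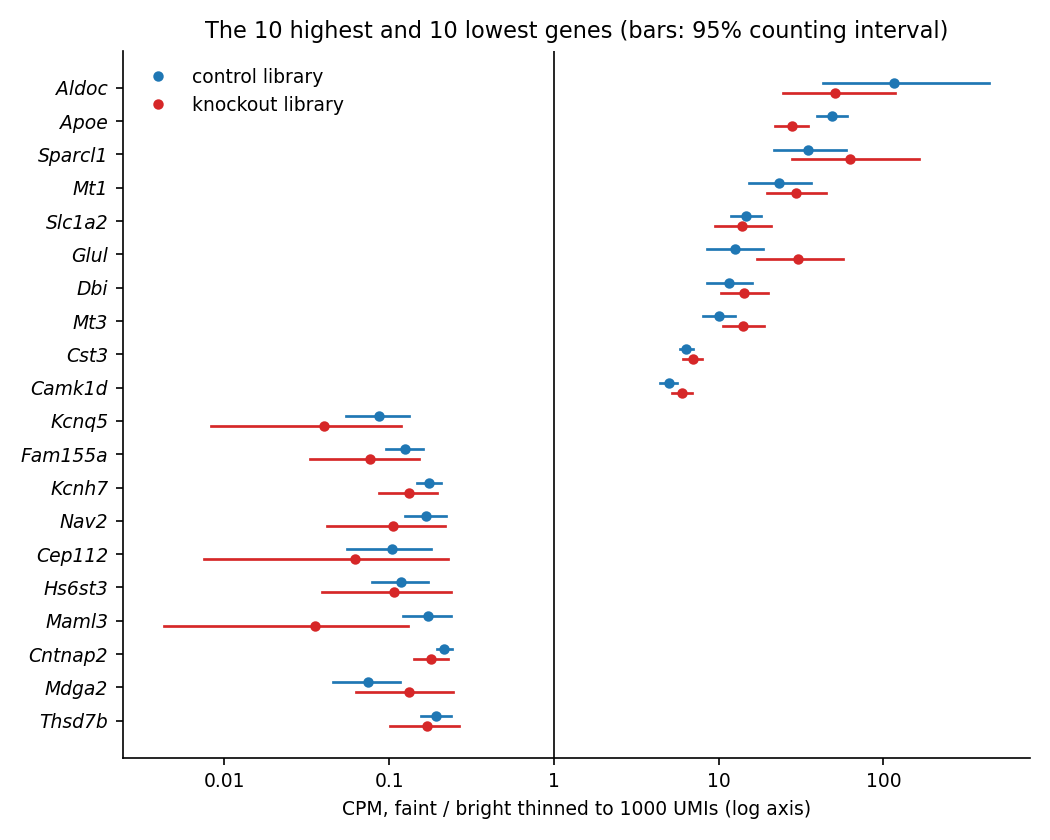
The horizontal axis gives the ratio of CPM in faint over thinned bright barcodes (log axis) with its 95% counting interval for the 10 highest and 10 lowest genes in both libraries, control in blue and knockout in red. The 9 genes at the top, *Aldoc* to *Cst3*, lie above 6 in both libraries and the 10 at the bottom, *Kcnq5* to *Thsd7b*, lie below 0.22.

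The profile differed with gene span, the length a gene covers on the genome. After the listed nuclear and ribosomal RNA genes were left out, genes that span 300 kb or more held 11.3% of control faint and 24.5% of bright UMIs (ratio 0.461, 0.453 to 0.469), and 12.7% and 23.0% in the knockout (0.553, 0.537 to 0.570). Genes under 10 kb held 25.4% and 12.5% in the control (2.04, 2.02 to 2.07) and 27.1% and 13.5% in the knockout (2.01, 1.96 to 2.05). Genes of 30 to 100 kb held about the same, 26.6% in both classes of the control. The droplets had the shortest profile, with 6.22% and 6.72% in genes of 300 kb or more. Faint barcodes with 2% or more nuclear-retained RNA held 17.0% and 20.0% there, and those under 1% with CR markers 9.76% and 10.1%. The span was not used to choose either group.

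**Figure D4:**
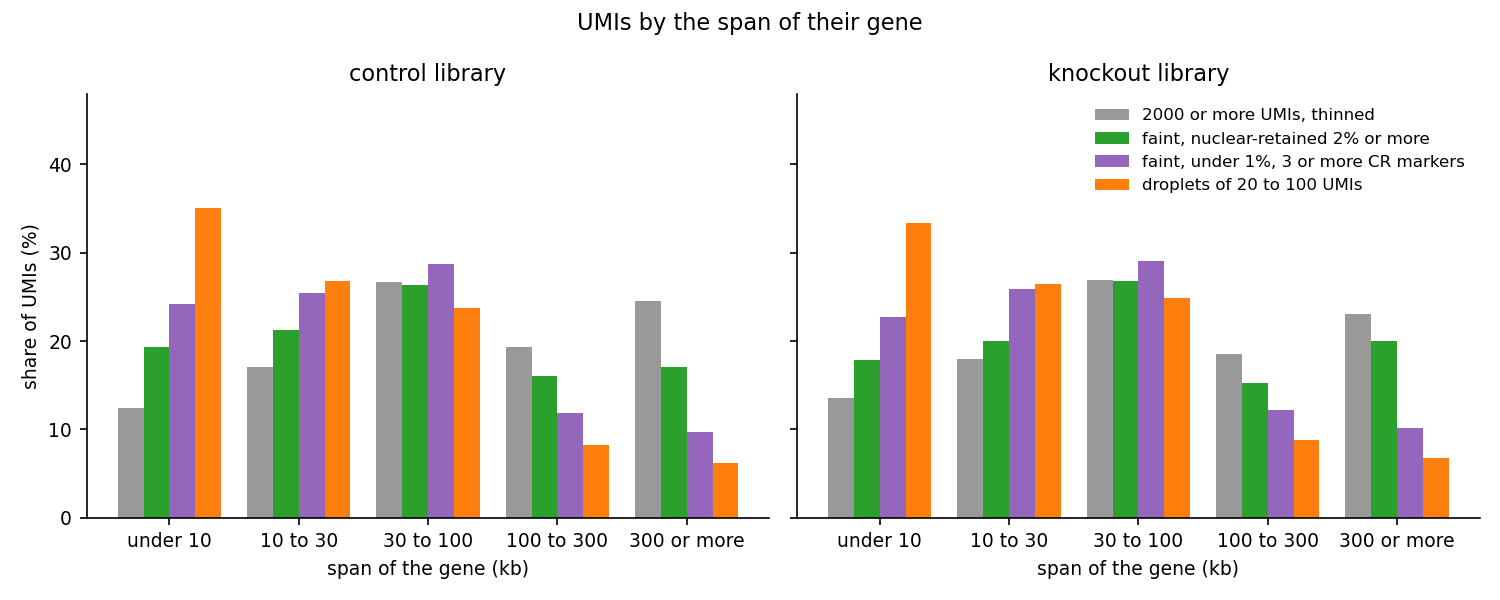
Bars show the share of UMIs (%) in genes by the length they span on the genome (kb) for thinned bright barcodes, the groups of faint barcodes with high and with low nuclear-retained RNA, and droplets, in the control (left) and knockout (right) library. In genes of 300 kb or more the bars fall from 24.5% (bright) to 17.0%, 9.76% and 6.22% (droplets) in the control and from 23.0% to 20.0%, 10.1% and 6.72% in the knockout.

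Ribosomal protein, respiratory chain and cytoskeletal mRNAs were higher in faint barcodes. Ribosomal protein genes made up 4.78% of all UMIs in control faint and 1.88% in bright barcodes, a ratio of 2.54 (2.48 to 2.61), and in the knockout the ratio was 2.46 (2.34 to 2.58). In droplets they made up 11.9% and 10.6%. Of the 83 with enough UMIs in the control 74 were at least 2-fold higher and 4 lower, and of 68 in the knockout 50 and 1. Over all genes, taken over all UMIs as for this list, 12.7% were higher and 34.3% lower in the control. In the knockout 10.9% were higher and 42.6% lower. For the lists that follow, the background is 15.4% higher and 30.2% lower in the control, and 11.1% and 39.4% in the knockout. Nuclear genes for the respiratory chain, whose mRNAs are translated in the cytosol, had ratios of 2.90 (2.79 to 3.00) and 2.98 (2.80 to 3.17), with 67 of 78 and 35 of 43 at least 2-fold higher and 0 lower. Of 16 cytoskeletal and cytosolic genes 11 and 7 were at least 2-fold higher and 0 lower, among them *Actb* (ratios 2.60 and 2.57), *Tmsb4x* (3.90 and 5.05) and *Tuba1a* (2.51 and 1.37, the latter under 2-fold). These 3 lists were higher still in droplets than in faint barcodes, by faint over droplet ratios of 0.402 to 0.737.

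*Gm42418* and *AY036118*, which overlap ribosomal RNA genes, made up 8.89% of UMIs outside the left-out genes in control faint barcodes, 2.41% in bright ones and 10.4% in droplets. In the knockout they made up 10.6%, 2.81% and 9.70%. *Gm42418* was the first gene of the 4 faint barcodes with under 150 genes, which had 104 to 146 genes each. In the control they had 891 and 510 UMIs, with 36.6% and 30.4% from *Gm42418*, and in the knockout 1907 and 910, with 37.6% and 27.6%. Faint barcodes as a whole were less diverse than bright ones: at 500 UMIs the median number of genes was 325 against 383 in the control and 300 against 382 in the knockout. Without its 2 barcodes of under 150 genes the mitochondrial ratio of the knockout was 3.45.

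Stress and death genes together held a larger share of UMIs in faint than in bright barcodes of the control. The 6 lists, with 65 genes in all, together held 1.21% of control faint and 0.710% of bright UMIs, a ratio of 1.70 (1.61 to 1.79), and 0.925% against 0.755% in the knockout, a ratio of 1.22 (1.10 to 1.37). As a share of all UMIs the knockout ratio was 1.05, below that interval. Droplets held 1.85% and 1.76%, more than either. Of genes with enough UMIs 10 of 34 were at least 2-fold higher and 0 lower in the control, beside 15.4% of all genes higher, and 0 of 18 higher and 1 lower in the knockout, beside 11.1%.

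Immediate early genes, which neurons switch on within minutes of stimulation, had a control ratio of 1.64 (1.49 to 1.80) and a knockout ratio of 1.14 (0.914 to 1.40). *Fos* stood at 731 against 433 CPM in control faint and bright barcodes and at 398 against 372 in the knockout, and its droplet level was 2015 and 2070.2. Heat shock genes had 2.03 (1.87 to 2.21) and 1.33 (1.12 to 1.58), with the chaperones *Hsp90ab1* (2.05 and 1.31) and *Hspa8* (2.38 and 1.38) as the most abundant. Both lists were lower in faint barcodes than in droplets, by ratios of 0.562 and 0.399 for immediate early and 0.615 and 0.498 for heat shock genes.

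The stress response list, made of genes of the unfolded protein and amino acid response, differed in that respect. It had ratios of 2.11 (1.83 to 2.44) and 1.27 (0.921 to 1.71) over bright barcodes and of 2.39 and 1.76 over droplets. *Hspa5*, the main chaperone of the endoplasmic reticulum, stood at 663 CPM in control faint barcodes, 277 in bright ones and 74.4 in droplets, and at 572, 340.3 and 69.4 in the knockout. *Xbp1*, a transcription factor of the same response, had ratios of 2.34 and 1.04.

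The p53 target and apoptosis lists had intervals that include 1 in both libraries. The p53 target list had ratios of 0.990 (0.752 to 1.29) and 0.932 (0.520 to 1.56) on 66 and 16 faint UMIs, and the apoptosis list 0.914 (0.761 to 1.09) and 1.20 (0.872 to 1.62) on 141 and 49. *Bax* and *Bbc3* are in both lists. *Diablo*, a mitochondrial protein released in apoptosis, had 426.2 against 437 CPM in the control and 373 against 463 in the knockout. *Cycs*, cytochrome c, had 11 faint UMIs in the control and 15 in the knockout, 6 of these in the smooth muscle barcode. The list of 6 genes of other forms of death had 1.99 (1.47 to 2.66) and 1.55 (0.811 to 2.74), carried by *Gpx4*, a lipid peroxide reductase, at 345 against 122 CPM in the control.

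**Figure D5:**
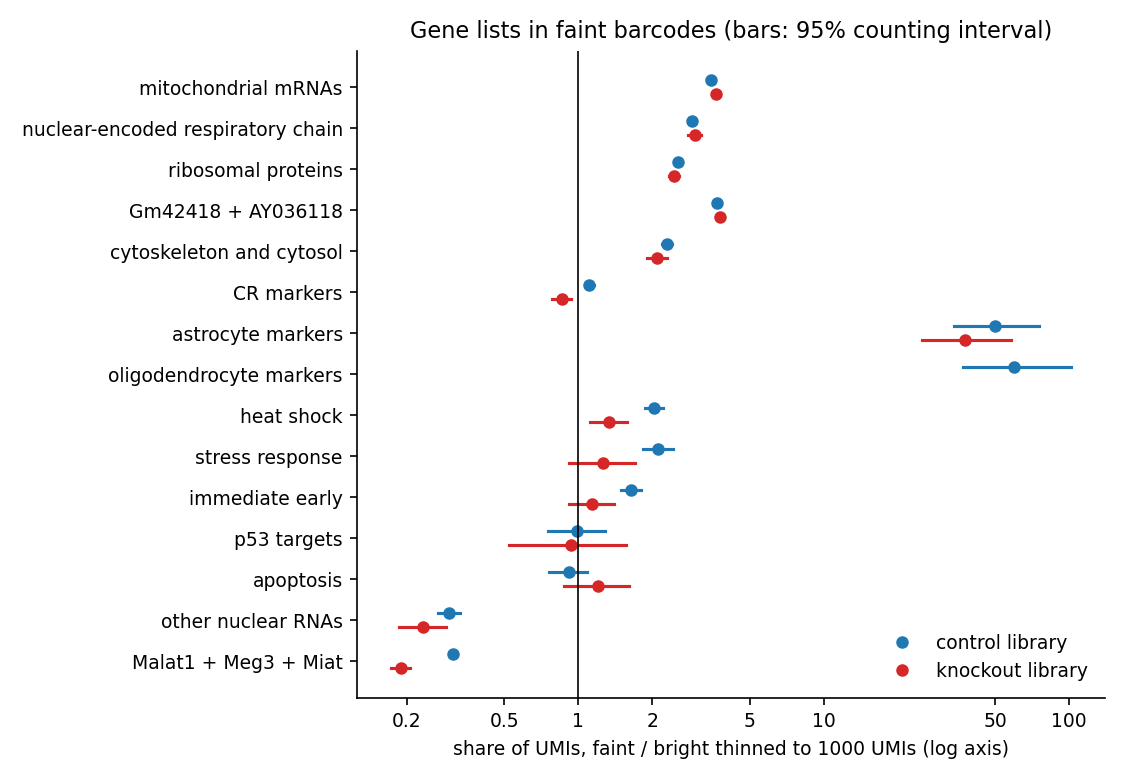
The horizontal axis gives the ratio of each gene list's share of UMIs in faint over thinned bright barcodes (log axis) with its 95% counting interval, control in blue and knockout in red. Mitochondrial mRNAs lie at 3.48 and 3.64 and astrocyte markers at 49.9 and 37.7, *Malat1*, *Meg3* and *Miat* lie at 0.308 and 0.189, and p53 targets and apoptosis genes have intervals that include 1. Oligodendrocyte markers had 0 faint UMIs in the knockout and have no point there.

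Each faint barcode was also placed between the profile of the droplets and that of thinned bright barcodes of its library, by the weight of the droplet profile that best described its counts. The median weight was 0.373 in the control (quartiles 0.297 and 0.642) and 0.335 in the knockout (0.166 and 0.746), while the median of thinned bright barcodes, which form one of the profiles, was near 0. The weight depended on how it was set up: with droplets of 10 to 50 UMIs the control median was 0.0406, and without the left-out genes the medians were 0.576 and 0.617. Faint barcodes under 1% nuclear-retained RNA with CR markers had medians of 0.360 and 0.234, those with 2% or more 0.222 and near 0, and those with another cell type's markers 0.753 and 0.727. Neither profile is rich in mitochondrial or astrocyte RNA, so the weight places a barcode between them without saying that it is a mixture of them.

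Between the libraries, faint barcodes of the knockout, summed, had a mitochondrial share 1.29 times (1.26 to 1.33) that of the control, a nuclear-retained share 0.600 times (0.546 to 0.658), CR markers 0.728 times (0.659 to 0.802) and astrocyte markers 1.96 times (1.56 to 2.45). The median mitochondrial share of a faint barcode went the other way, with 12.1% in the control and 11.5% in the knockout. A few knockout barcodes with a mitochondrial share over 30% raise its sum. They had 825, 910, 766, 554 and 905 UMIs and shares of 57.7%, 35.9%, 58.4%, 38.3% and 35.5%. The only such control barcode had 603 UMIs and 41.0%. The ratio of 1.29 was not taken without them, and its interval does not cover this spread over barcodes. Intervals of the other ratios have the same limit. Counted by barcode, 9.42% of control (5.68 to 14.5) and 13.7% of knockout ones (5.70 to 26.3) had 3 astrocyte markers, with overlapping intervals. Shares with 3 CR markers at 500 UMIs, 53.9% (46.6 to 61.1) and 31.4% (19.1 to 45.9), had intervals that did not overlap. The knockout barcode richest in *Reln* held 63 of 493 CR marker UMIs and 6.37% nuclear-retained RNA, which raises both knockout sums. Thinned bright barcodes differed in the same direction as the sums. In the control and knockout their mitochondrial shares were 3.16% and 3.91%, and their nuclear-retained shares 7.09% and 6.92%. CR markers held 1.52% and 1.43% there, and astrocyte markers 0.00313% and 0.00811%. Genotype, library and pool of mice cannot be told apart here.

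Genes tied to *Cic* were too sparse in faint barcodes for a comparison. *Etv4* and *Etv5*, transcription factors repressed by the Cic protein, had 1 and 5 UMIs in the control and 2 and 1 in the knockout. *Vgf* had 4 and 5, *C1ql1* 1 and 4, *Fgf1* 2 and 1, *Arhgap26* 3 and 1, *9630014M24Rik* 1 and 1, *Gm5820* 0 and 1, and *Spry4* 0 and 0. The ratio of *C1ql1*, a secreted synaptic protein, of knockout over control was 14.7 (1.45 to 724) on these few UMIs, beside 10.5 (4.18 to 31.1) in bright barcodes. No other of these genes had a faint interval that leaves out 1. The ratio was 7.35 (0.383 to 434) for *Etv4*, 4.59 (0.989 to 23.1) for *Vgf*, 1.84 (0.0311 to 35.3) for *Fgf1* and 0.735 (0.0155 to 6.57) for *Etv5*. Intervals of *Arhgap26* and *9630014M24Rik* included 1 as well. *Egr1*, an immediate early gene, had 31 UMIs in 20 control faint barcodes and 0 in the knockout, where the control level would give 8.44. In bright barcodes its ratio of knockout over control was 0.524 (0.302 to 0.865).

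*Xist*, the nuclear RNA of the inactive X chromosome, had 6 UMIs in control and 4 in knockout faint barcodes, with ratios over bright ones of 0.0880 and 0.119. The 4 Y-linked genes had 29 and 4 UMIs and ratios of 0.480 (0.317 to 0.700) and 0.306 (0.0822 to 0.804). Only 1 of 191 control and 0 of 51 knockout faint barcodes held both, and 167 and 44 held neither, so few barcodes could be placed by sex.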

How the data were processed

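The authors deposited unfiltered counts (UMIs by gene and by barcode, 32285 genes) for the 2 libraries. The matrix header names Cell Ranger 4, the submitters' processing notes Cell Ranger 8.0.1 and mm39, and the methods another build, mm10. Intron counting and strand are not given in the sources used here, so overlapping genes cannot be told apart. Gene positions and spans are from GENCODE M21 (GRCm38), matched by identifier for 32235 genes. The members and gene lists were chosen with earlier results of these data known. Bright barcodes were thinned once to 1000 UMIs without replacement, and sums over barcodes were compared. Shares and CPM leave out 192 genes (mt-, Rpl, Rps and Mrp prefixes), except for mitochondrial and ribosomal protein lists. Intervals are exact at 95% (Poisson or Clopper-Pearson), and a count of 0 allows 3 counts. Barcodes were not treated as replicates, and doublets were not called. Named genes were the 10 highest and 10 lowest by the interval bound nearer to 1 in the less extreme library, the listed genes with most UMIs and 11 genes around *Cic*. Other genes, and the limits on nuclear-retained and mitochondrial shares, were chosen after the values were seen. *Bax* and *Bbc3* count in the p53 and the apoptosis list. Python 3.11.15, numpy 2.4.6, scipy 1.17.1 and pandas 2.3.3 were used, and the steps were tested on simulated data. Some listed genes are not reported here.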

Additional observations from a re-analysis of the deposited data

Results flagged for a closer look

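In 3 lists, the share of UMIs was higher in faint than in bright barcodes of one library and lower in the other, with 95% counting intervals that leave out 1 in both, and the difference was not tested. CR markers had faint over bright ratios of 1.11 in the control and 0.856 in the knockout. The marker *Ndnf* had a higher ratio than the list in both libraries, and the list ratios were not taken without it. These shares leave out the mt-, Rpl, Rps and Mrp genes, and no interval was taken for CR markers over all UMIs. *Reln*, 1 of these markers, had ratios of 0.668 and 0.554 over all UMIs, against 0.754 and 0.643 without those genes. In the control, CR markers held 2489 of all 176146 faint UMIs, and 14523 UMIs in 1011 bright barcodes of 1000 UMIs each. Over all UMIs the control CR ratio was therefore just under 1, and that of the knockout was under 1 as well. Ependymal and choroid markers had 1.72 and 0.272, where 144 of 146 control faint UMIs of *Ttr* and all 22 knockout ones came from 1 barcode each. The bright shares of this list differed as well, with 0.0578% and 0.210%, and *Ttr* was found in only 9 and 5 thinned bright barcodes. Genes linked to *Cic* had 1.68 and 0.576, on 64 and 16 faint UMIs. Their faint shares were close, with 0.0433% in the control and 0.0398% in the knockout. The bright shares under them differed more, with 0.0258% and 0.0691%. Of the 64 control UMIs, 31 were of *Egr1* and 16 of *Cic* itself.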

How the results depend on the processing

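No paired analysis was possible because each genotype has 1 library, and leaving out a replicate was not possible for the same reason. Alternatives were run for the mitochondrial, nuclear-retained, *Reln* and stress and death ratios. Ratios of other lists, among them CR markers, were not rerun with intervals. As shares of all UMIs, the knockout stress and death ratio went from 1.22 to 1.05 and the knockout heat shock ratio from 1.33 to 1.15. No interval was taken for these, so whether they still leave out 1 was not tested. Of the rerun ratios, those whose main interval leaves out 1 kept their direction. Lists whose interval includes 1 did not always: the knockout immediate early ratio of 1.14 was 0.938 for faint barcodes of 500 to under 1000 UMIs and 0.980 as a share of all UMIs, the control apoptosis ratio of 0.914 was 1.05 for barcodes of 500 to under 1000 UMIs, and the control p53 target ratio of 0.990 was 1.14 for those of 1000 or more and, chosen after seeing the data, 1.03 without barcodes with 3 markers of another cell type. The median log2 ratio, -0.22 and -0.45, leaves out genes without a faint UMI. It was -0.36 and -0.58 as a share of all UMIs, 0.26 and 0.51 with at least 1 UMI a gene, and 0.07 in the knockout with bright barcodes not thinned. Because of the genes left out, these positive medians do not describe all genes. With at least 1 UMI a gene, 45.0% of control and 55.25% of knockout genes were at least 2-fold lower, and 19.7% and 19.4% higher. Values that moved out of their interval or, for counts, by over 1.5 times follow, with the cause not tested unless stated. With bright barcodes not thinned, the mitochondrial ratio was 3.70 in the control and 3.90 in the knockout, the control nuclear-retained ratio 0.324 and the control stress and death ratio 1.57. Genes past 2-fold were then 1533 higher and 3154 lower in the control, and 1183 and 3137 in the knockout, as more genes reach 50 UMIs. With at least 200 UMIs a gene they were 155 and 356, and 23 and 110, and with at least 1 UMI 3289 and 7520, and 2901 and 8277, by the number of genes compared. Faint barcodes of 500 to under 1000 UMIs had mitochondrial ratios of 3.60 and 4.10, nuclear-retained ratios of 0.151 and 0.109 and *Reln* ratios of 0.640 and 0.449, and those of 1000 or more had 3.36 and 3.22, 0.463 and 0.260, and 0.868 and 0.813. With free RNA subtracted, the mitochondrial ratios were 3.83 and 3.79, and in the control the nuclear-retained ratio was 0.329, that of *Reln* 0.823 and that of stress and death genes 1.60. As shares of all UMIs, nuclear-retained ratios were 0.273 and 0.163, *Reln* ratios 0.668 and 0.554, and stress and death ratios 1.504 and 1.05. Of the single stress lists in the control, the heat shock ratio was 1.80 and the immediate early ratio 1.45 as shares of all UMIs. With bright barcodes not thinned, the control heat shock ratio was 1.86. The control stress response ratio was 1.81 for faint barcodes of 500 to under 1000 UMIs. A lower limit of 300 UMIs gave 357 and 89 faint barcodes. CR markers were found, with 3 at 500 UMIs, in 53.9% of control faint and 65.9% and 65.5% of control and knockout bright barcodes. With 2 markers it was 89.1%, 99.3% and 96.8%, and with 4 it was 48.4%, 65.8% and 67.7%. With droplets of 10 to 50 UMIs, the control free RNA weight was 0.0406.

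The following were chosen after seeing the data. With free RNA taken from droplets of 20 to under 200 UMIs, mitochondrial ratios were 3.90 and 3.79. In the control the nuclear-retained ratio was then 0.333, that of *Reln* 0.836, that of stress and death genes 1.57 and that of immediate early genes 1.45. Without barcodes with 3 markers of another cell type, the knockout mitochondrial ratio was 3.95, nuclear-retained ratios 0.340 and 0.226 and *Reln* ratios 0.837 and 0.780. Without the knockout barcode richest in *Reln*, its nuclear-retained ratio was 0.169 and its *Reln* ratio 0.453. Without barcodes under 150 genes, the knockout mitochondrial ratio was 3.45. The 51 knockout faint barcodes and their 49671 UMIs limit what can be seen there.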
